A study of Mus musculus with 16 samples.

Results

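Tubulin isotypes are the products of separate genes that encode the alpha and beta subunits of microtubules, and their transcripts were followed here in bulk RNA-seq of the mouse flexor tendon. The set held 10 of the 49568 gene symbols in the count table, namely the 6 beta-tubulin genes Tubb6, Tubb5, Tubb2a, Tubb2b, Tubb3 and Tubb4b and the 4 alpha-tubulin genes Tuba1a, Tuba1b, Tuba1c and Tuba4a. Tubb6 was chosen by its counts in injured against uninjured MRL tendon, where it rose, so its values in every contrast that uses MRL libraries are given as a description with no test, and the other 9 genes were taken by name as members of the same family. All 10 passed the filter on low counts in each comparison, although Tubb2b and Tubb3 stayed below 10 CPM in all but 1 library (CPM, the counts of a gene scaled to a common library size). Mice were of the strains C57BL/6J (C57) and MRL/MpJ (MRL), and each strain gave 4 libraries of uninjured tendon and 4 of tendon collected at 7 days post injury (dpi). C57 is a common inbred laboratory strain, and MRL is an inbred strain studied for its unusual healing. The animals were male and 9 to 11 weeks old, and the labels name no transgene. The injury was a cut through about 50% of the width of the deep digital flexor tendon of the third digit of the hind paw. Each library came from a single tendon whose sheath and surrounding tissue had been left in place, so the RNA is that of tendon cells together with any sheath, vascular and inflammatory cells.

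Microtubules are hollow polymers of alpha- and beta-tubulin dimers that form the mitotic spindle and the tracks for intracellular transport. The isotypes share a nearly invariant body and differ most in their acidic carboxyl-terminal tails, which project from the polymer surface and carry the polyglutamylation and detyrosination marks read by motors and microtubule-associated proteins. Tubb5, Tubb4b, Tuba1b and Tuba1c are broadly expressed, Tubb2a, Tubb2b and Tuba1a are abundant in developing brain among other tissues, Tubb3 is the classical neuronal isotype, Tuba4a is a major alpha-tubulin of platelets, muscle and mature neurons, and Tubb6 is a broadly expressed isotype of low abundance in adult skeletal muscle that rises when muscle regenerates. Dimers assemble through prefoldin, the CCT chaperonin and the tubulin cofactors, and cells hold their tubulin mRNA level in check by a decay pathway triggered by free dimers.

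The stretches in which most isotypes differ are shown for 7 members as the last 60 coding bases, with the last sense codon and the stop codon in capitals. They were read from the GRCm38 genome with the GENCODE M21 annotation, and each lies in exon 4 of 4 of the main transcript.
Tubb5, minus strand, chr17:35834982-35835041: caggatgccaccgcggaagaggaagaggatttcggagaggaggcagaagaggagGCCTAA
Tubb4b, minus strand, chr2:25222308-25222367: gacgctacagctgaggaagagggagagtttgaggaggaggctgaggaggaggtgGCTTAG
Tubb2a, minus strand, chr13:34074468-34074527: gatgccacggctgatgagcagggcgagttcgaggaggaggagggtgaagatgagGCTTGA
Tubb2b, minus strand, chr13:34127471-34127530: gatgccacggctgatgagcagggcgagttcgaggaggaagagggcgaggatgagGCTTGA
Tubb3, plus strand, chr8:123421623-123421682: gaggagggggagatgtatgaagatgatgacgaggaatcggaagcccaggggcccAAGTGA
Tuba1c, plus strand, chr15:99037950-99038009: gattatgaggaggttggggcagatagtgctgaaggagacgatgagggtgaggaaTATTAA
Tuba4a, minus strand, chr1:75215622-75215681: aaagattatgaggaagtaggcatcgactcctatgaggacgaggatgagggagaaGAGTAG
These tails are rich in glutamate codons. Tuba1c ends in a tyrosine codon before the stop, the residue that the detyrosination cycle removes and restores, and Tuba4a does not. The stretches of Tubb2a and Tubb2b were identical at 95% of bases and encode the same residues, so they do not set these 2 isotypes apart. Over the whole coding sequence Tuba1a and Tuba1b were identical at 98.3% of aligned bases, Tuba1b and Tuba1c at 97.9%, and Tubb2a and Tubb2b at 96.5%. Tubb6 was identical to the other beta members at between 80.2% and 85.7%.

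That likeness matters for what a count means, because reads were 100 nt long. Of all 100-base windows along the spliced exons, 73.0% in Tuba1b, 65.8% in Tuba1a and 53.4% in Tuba1c also occurred in another annotated gene. The share was 36.9% in Tubb2a, 30.6% in Tubb4b and 27.7% in Tubb2b, and 0% in Tubb6, Tubb5 and Tubb3. Tubb3 overlaps the annotated gene Gm20388 on the same strand, which had 0 counts in every library. In Tuba4a it was 46.7%, all of it exon shared with Stk16 on the opposite strand. How reads that matched several genes were counted is not given in the sources used here, so the split between Tuba1a, Tuba1b and Tuba1c and between Tubb2a and Tubb2b is uncertain. The same holds for Tuba4a against Stk16 and for Tubb4b against Tubb4b-ps1 and other annotated genes. Tubb6 and Tubb5 counts could not be exchanged with a copy through a full-length match.

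Promoter sequence was available in the RefSeq-based table for 8 of the 10 members, on build GRCm38.p6. Matches to 5 short motifs were searched on both strands in the 250 bases before the start, namely the CCAAT box, the core TTTGAA of the cell cycle homology region, the GC box GGGCGG, the core GGAATG bound by TEAD factors, and the TATA box in the form TATAAA, and no member match overlapped another. The promoters of Tubb5 and Tuba1c, which passed both the p and the fold criterion after injury in MRL, and of Tubb4b, which held the most CCAAT matches, are shown with CCAAT and TTTGAA in capitals, either strand.
Tubb5, minus strand, chr17:35838302-35838551: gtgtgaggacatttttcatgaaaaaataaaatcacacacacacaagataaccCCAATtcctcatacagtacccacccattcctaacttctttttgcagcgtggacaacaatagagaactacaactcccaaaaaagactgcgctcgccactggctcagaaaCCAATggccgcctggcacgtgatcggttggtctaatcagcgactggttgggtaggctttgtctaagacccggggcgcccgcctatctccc
Tuba1c, plus strand, chr15:99029641-99029890: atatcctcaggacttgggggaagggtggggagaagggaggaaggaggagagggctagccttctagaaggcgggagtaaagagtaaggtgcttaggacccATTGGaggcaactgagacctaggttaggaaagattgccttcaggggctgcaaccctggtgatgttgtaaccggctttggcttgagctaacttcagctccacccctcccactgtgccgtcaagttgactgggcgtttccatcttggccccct
Tubb4b, minus strand, chr2:25224703-25224952: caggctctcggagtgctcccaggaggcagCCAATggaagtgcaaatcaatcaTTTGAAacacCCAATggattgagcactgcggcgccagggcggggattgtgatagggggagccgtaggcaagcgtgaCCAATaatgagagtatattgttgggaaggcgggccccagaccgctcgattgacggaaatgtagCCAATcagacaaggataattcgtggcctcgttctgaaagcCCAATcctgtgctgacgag
CCAAT was present in 5 of the 8 member promoters and in 33.8% of the 32536 promoters of the table. Tubb4b held 5 matches, Tubb5 held 2, and Tuba1c, Tuba1a and Tubb3 held 1 each. TTTGAA occurred in 1 member promoter, that of Tubb4b, against 15.8% of all promoters. GGGCGG was in 6 of 8 against 33.0%, GGAATG in 1 of 8 (Tubb5) against 12.6%, and TATAAA in 1 of 8 (Tubb2a) against 12.3%. These are letter matches in a short window and were not read as binding sites.

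Library totals ran from 12552424 to 23741648 counts, so that 3 counts corresponded to between 0.126 and 0.241 CPM. Depth followed group, with the 4 injured MRL libraries the deepest, at 18524170 counts or more, and all others at 17832908 or fewer. All 8 tendon markers (among them Scx, Tnmd and Fmod) had counts in every library. Of the 16 libraries 3 were treated as standing apart from their groups. C57 uninjured replicate 4 held a summed 77084 CPM of 12 epidermal markers against at most 687 CPM in the other 15 libraries, and 273 CPM of 10 proliferation markers against at most 17.1 CPM in the other uninjured libraries. BI-181, a C57 injured library, held 74717 CPM of 12 skeletal muscle markers, and its group mate BI-183 held 2230 CPM, against at most 19.98 CPM elsewhere. MRL uninjured replicate 4 differed more from its 3 group mates (Spearman's rho across genes 0.932 to 0.941) than they did from one another (0.953 to 0.961). Where these libraries moved a result, the value without them is given too. BI-275, an MRL injured library, differed from its mates in a like way (0.928 to 0.938 against 0.956 to 0.961) but was not among the 3, and its removal is given for the isotypes called.

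Tubb6 was higher in every injured library than in any uninjured library of the same strain. It is annotated as a gene of 4 exons on the plus strand of chromosome 18, from 67390717 to 67402749 (GRCm38). In uninjured MRL tendon its levels were 86.3, 80.8, 97.9 and 59.9 CPM, and at 7 dpi they were 392 CPM in BI-270, 425 in BI-272, 296 in BI-274 and 533 in BI-275. The 2 MRL groups were far apart, and the fitted difference that led to the choice of the gene was 2.35 ± 0.22 on the log2 scale (SE, 8 libraries). In C57 tendon, where the choice used no value, the uninjured levels were 60.5, 53.9, 78.5 and 129 CPM, and the injured levels were 178 CPM in BI-181, 305 in BI-183, 345 in BI-184 and 159 in BI-185. The injured C57 libraries were thus all above the uninjured ones, a pattern shown by 7.42% of all genes tested in that contrast, with the uninjured replicate 4 closest to the injured range. The log2 fold change in C57 was 1.56 ± 0.36, with an edgeR adjusted p of 0.0819, which missed the threshold of 0.05.

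Whether Tubb6 passed in C57 depended on the library with epidermal transcripts, and also on the tool, the filter and the libraries fitted together. Without C57 uninjured replicate 4 the log2 fold change was 1.90 ± 0.30 (edgeR adjusted p = 0.00960), and without that library and BI-181 it was 2.07 ± 0.28 (edgeR adjusted p = 0.00432). DESeq2 on all 8 libraries gave 1.61 ± 0.40 with an adjusted p of 0.00232. With replicate 4 kept, edgeR gave an adjusted p of 0.0434 when each library had to hold 10 or more counts of a gene and 0.0131 in one fit of 16 libraries. Over 15 alternatives the direction held in 15, the adjusted p ranged from 0.00232 to 0.234, and 5 of them passed. No member was called in C57 with both criteria used by the study, an adjusted p under 0.05 and a log2 fold change beyond 1 in either direction, where 1.07% of 14424 genes were called. Unadjusted p was under 0.05 for 2 members, Tubb6 and Tubb5, and for 2204 of the 14424 genes. DESeq2 called 1 member, Tubb6, among 909 genes.

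**Figure D1:**
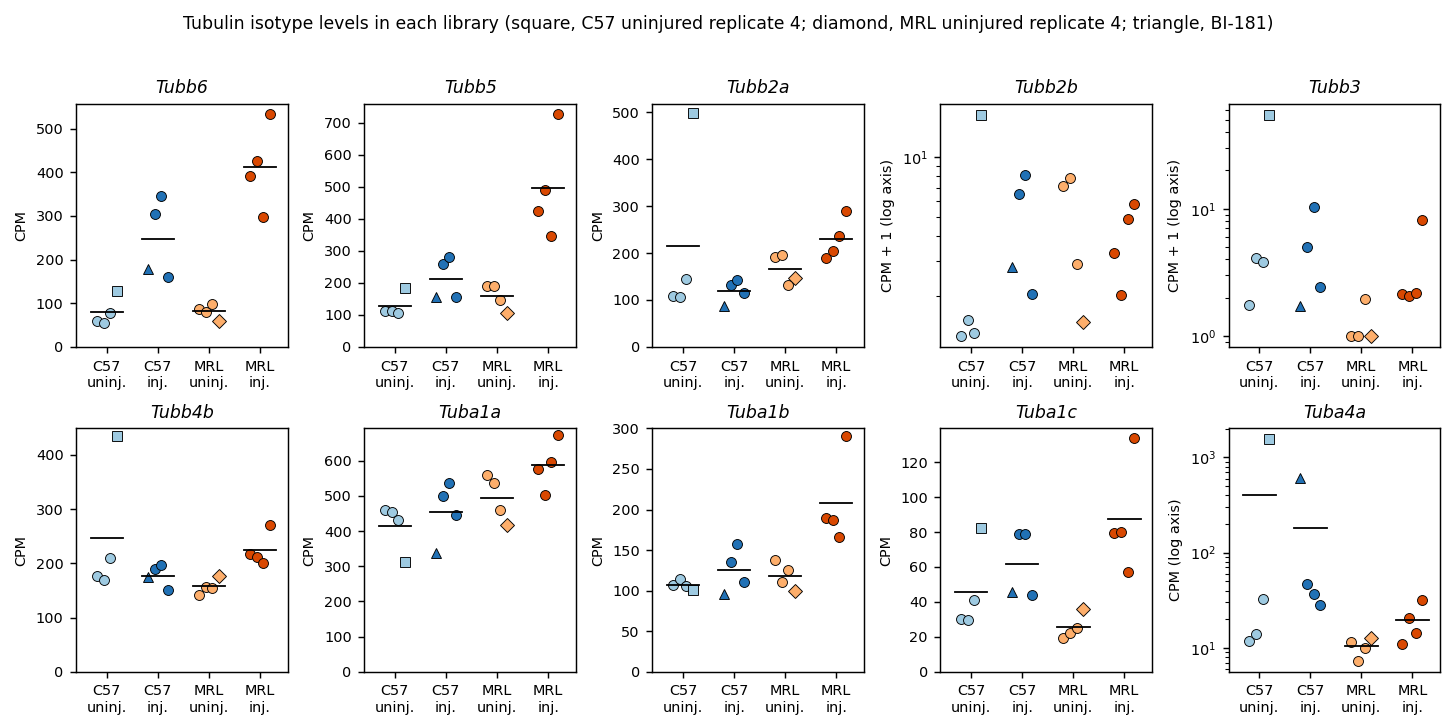
Levels of the 10 tubulin isotypes in the 16 libraries, in CPM (Tubb2b and Tubb3 as CPM + 1 on a log axis, Tuba4a as CPM on a log axis). Each point is 1 library, the 4 columns are C57 uninjured (uninj.), C57 injured (inj.), MRL uninjured and MRL injured, horizontal lines are group means where drawn, and the square, diamond and triangle mark the 3 libraries that stand apart. Tubb6 is higher in all injured libraries of both strains, Tubb5 reaches 348 to 728 CPM only in injured MRL tendon, and the Tuba4a values of 1543 and 607 CPM belong to the square and the triangle.

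In MRL tendon 2 of the 9 isotypes other than Tubb6 passed both criteria, Tubb5 and Tuba1c, both higher after injury, and 5.25% of 14274 genes were called higher. By adjusted p alone 4 of the 9 were higher, against 7.73% of genes. The median log2 fold change of the 9 was 0.82, beside -0.03 over all genes tested, and 8 of the 9 were above 0. In C57 the corresponding median over the 9 was -0.18 beside -0.05 over all genes, and 4 of 9 were above 0. Without replicate 4 and BI-181 the C57 median was 0.95 and 8 of 9 were above 0, and in MRL without its replicate 4 the median was 0.76. Within the MRL injured group BI-275 was the highest library for all 10 isotypes, and without it the Tubb6 difference was 2.20 on the log2 scale.

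Tubb5, the main beta-tubulin of dividing cells, went from 189, 189, 146 and 106 CPM in uninjured MRL tendon to 425, 489, 348 and 728 CPM at 7 dpi. The groups did not overlap, a pattern shown by 13.5% of genes tested in MRL. The log2 fold change was 1.67 ± 0.26 (edgeR adjusted p = 0.00458), it was 1.42 without BI-275, and it stayed past the threshold in all 15 alternatives with adjusted p between 3.17e-07 and 0.0188. In C57 tendon Tubb5 measured 113, 111, 106 and 183 CPM before and 157, 259, 282 and 155 CPM after injury. The single high uninjured value, again in replicate 4, lay above 2 of the injured libraries. The C57 log2 fold change was 0.67 ± 0.28 (edgeR adjusted p = 0.300), and without replicate 4 and BI-181 it was 1.08 ± 0.21 (adjusted p = 0.0165). Over 15 C57 alternatives the adjusted p ran from 0.0165 to 0.524.

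Tuba1c, a broadly expressed alpha-tubulin, was the other isotype called. Its MRL levels rose from 19.2, 22.0, 25.1 and 35.8 CPM to 79.2, 79.9, 57.1 and 134 CPM, a log2 fold change of 1.79 ± 0.29 (edgeR adjusted p = 0.00488). It was 1.503 without BI-275 and passed in all 15 alternatives, with adjusted p between 7.02e-07 and 0.0211. The injured levels lay above all uninjured ones. In C57 the uninjured levels were 30.2, 29.7, 40.9 and 82.1 CPM and the injured levels 45.4, 78.9, 78.6 and 43.6 CPM, so that replicate 4 exceeded every injured library. The log2 fold change there was 0.37 ± 0.38 (edgeR adjusted p = 0.697), and 1.00 ± 0.25 (adjusted p = 0.0467) without replicate 4 and BI-181, within a range of 0.0467 to 0.873 over 15 alternatives.

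Tuba1b and Tubb4b moved less and passed on adjusted p alone. Tuba1b, a ubiquitous alpha-tubulin, measured 100 to 138 CPM in uninjured and 167 to 290 CPM in injured MRL tendon, with no overlap and a log2 fold change of 0.82 ± 0.20 (edgeR adjusted p = 0.0269). Its adjusted p was under 0.05 in 10 of 15 alternatives, and leaving out MRL uninjured replicate 4 gave an adjusted p of 0.0581 (range over alternatives 0.00376 to 0.0746). Tubb4b, a beta-tubulin that is also prominent in cilia, went from 141 to 177 CPM up to 201 to 271 CPM, again with no overlap, a log2 fold change of 0.53 ± 0.15 (edgeR adjusted p = 0.0478) and only 5 of 15 alternatives under 0.05 (range 0.0129 to 0.237). In C57 the log2 fold changes were 0.17 ± 0.17 for Tuba1b and -0.53 ± 0.32 for Tubb4b, with adjusted p of 0.686 and 0.469. The negative Tubb4b value rested on the 434 CPM of replicate 4, beside 169 to 210 CPM in its 3 group mates, and was -0.09 without it.

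**Figure D2:**
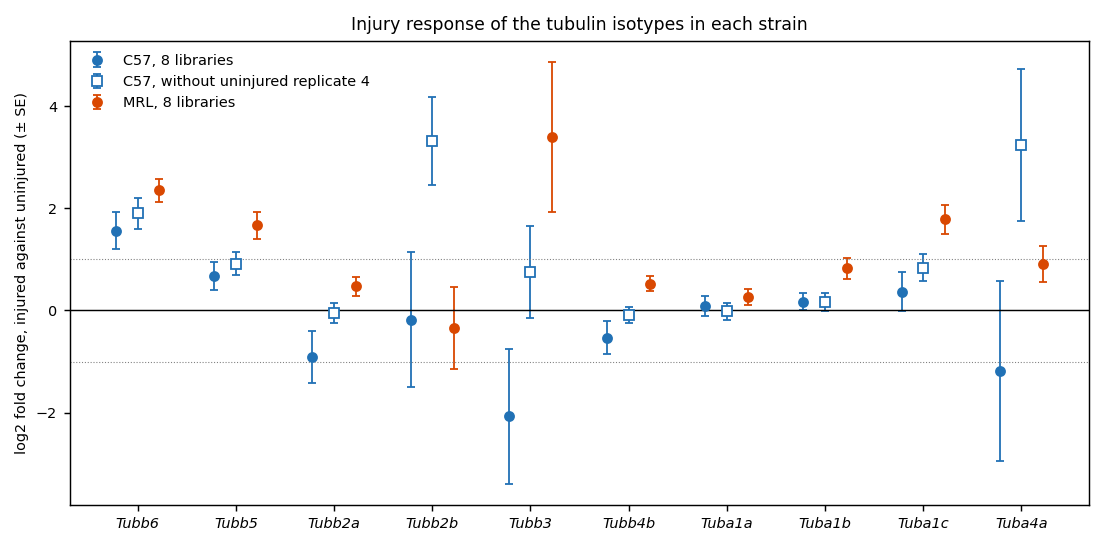
Log2 fold change of each isotype, injured against uninjured, with its SE as bars. Filled blue circles are C57 with all 8 libraries, open squares are C57 without uninjured replicate 4, filled orange circles are MRL with all 8 libraries, and dotted lines mark a log2 fold change of 1 in either direction. Tubb6, Tubb5, Tuba1c and Tubb3 lie above the upper line in MRL at 2.35, 1.67, 1.79 and 3.39, the Tubb3 value with an SE of 1.47 and a range of 2.17 to 8.58 when single libraries were left out, and leaving out 1 C57 library moves Tuba4a from -1.18 to 3.24 and Tubb2b from -0.18 to 3.32.

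Tuba1a, an alpha-tubulin abundant in developing brain, did not pass in either strain. Its MRL levels were 417 to 561 CPM before and 504 to 674 CPM after injury (log2 fold change 0.26 ± 0.16, edgeR adjusted p = 0.313), and its C57 levels were 313 to 461 and 338 to 538 CPM (0.09 ± 0.20, adjusted p = 0.891). The groups overlapped in both strains. Tubb2a, a major beta-tubulin of brain, ran from 131 to 197 CPM in uninjured and from 190 to 288 CPM in injured MRL tendon, with a log2 fold change of 0.47 ± 0.19 (edgeR adjusted p = 0.138). In C57 it measured 106 to 145 CPM in 3 uninjured libraries, 498 CPM in replicate 4, and 87.4 to 143 CPM after injury. Its C57 log2 fold change of -0.91 ± 0.51 (adjusted p = 0.429) became -0.04 without replicate 4.

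Tuba4a showed how far 1 library can set a group mean. In uninjured C57 tendon it measured 11.8, 13.9 and 32.4 CPM in 3 libraries and 1543 CPM in replicate 4, the library with epidermal markers. In injured C57 tendon it measured 607 CPM in BI-181, the library with muscle markers, and 47.3 CPM in BI-183, 36.4 in BI-184 and 28.0 in BI-185. In MRL tendon it stayed between 7.36 and 12.6 CPM before and between 11.0 and 32.0 CPM after injury (log2 fold change 0.92 ± 0.36, edgeR adjusted p = 0.124, and a log2 fold change of 0.56 without BI-275). The C57 log2 fold change was -1.18 ± 1.76 with all libraries, -3.50 without BI-181, 3.24 without replicate 4 and 0.95 ± 0.39 without both, with an adjusted p of 0.196 in the last case. Tuba8, an alpha-tubulin outside the set, was at 226 CPM in replicate 4 and 78.6 CPM in BI-181 and at most 2.16 CPM in any other library. The part that epidermal or muscle tissue in these libraries had in the levels was not tested.

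Tubb3 and Tubb2b were at the low end of the range. Tubb3, the neuronal isotype, had no count in 3 uninjured MRL libraries and 0.955 CPM in the fourth (a count of 0 allowed up to 0.199 to 0.241 CPM in those libraries, counting error only), and measured 1.13, 1.04, 1.19 and 7.18 CPM after injury. All 4 injured values were above the uninjured ones, and the fitted log2 fold change was 3.39 ± 1.47 (edgeR adjusted p = 0.161). Its uninjured level rests on 1 library, because 3 libraries were at 0, and DESeq2 gave a log2 fold change of 3.46. The adjusted p was under 0.05 in 1 of 13 alternatives, the one without MRL uninjured replicate 3, where the uninjured group was left with no count (range 0.0414 to 0.424). The fitted value was 8.58 in that fit, where it depends on the prior count, and 2.17 without BI-275. In C57 it measured 0.739, 3.11, 2.78 and 53.9 CPM before and 0.720, 4.01, 9.27 and 1.42 CPM after injury. Neuronal markers were scarce throughout, with a sum over 9 markers of 1.53 to 46.6 CPM, Dcx at 0 in every library and the lowest sum in the library with the highest Tubb3. Tubb2b measured 0.269, 0.518 and 0.309 CPM in 3 uninjured C57 libraries, 15.3 CPM in replicate 4, and 1.06 to 7.07 CPM after injury. Its C57 log2 fold change was -0.18 ± 1.32 with all libraries and 3.60 ± 0.86 (edgeR adjusted p = 0.0369) without replicate 4 and BI-181, and that was the 1 of 14 alternatives with an adjusted p under 0.05 (range 0.0369 to 0.993). In MRL it measured 0.482 to 6.85 CPM before and 1.04 to 4.79 CPM after injury. Without replicate 4 and BI-181, 3 isotypes (Tubb6, Tubb5 and Tubb2b) passed both criteria as higher in C57, where 4.53% of genes did.

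Set against each other per kilobase of exon, the isotypes changed their order after injury. Tuba1a led in all 4 groups, with means from 230 ± 38.2 CPM per kb in uninjured C57 to 326 ± 38.8 CPM per kb in injured MRL tendon (SD, n = 4), although in uninjured C57 its range overlapped that of Tubb2a. In uninjured MRL tendon Tubb6 ranked sixth at 33.3 ± 6.52 CPM per kb, behind Tubb2a (103 ± 20.3), Tubb4b (75.4 ± 7.14), Tuba1b (63.3 ± 8.95) and Tubb5 (47.3 ± 11.9), with its range overlapping that of Tubb5. In injured MRL tendon it ranked second at 169 ± 40.0 CPM per kb, ahead of Tubb5 (150 ± 49.4) and Tubb2a (143 ± 27.2), whose ranges overlapped its own. The ranges of Tuba1b (88.9 to 155) and Tubb4b (96.5 to 130) also overlapped that of Tubb6 (122 to 219). Without division by length Tubb5 lay above Tubb6 there, at means of 498 and 412 CPM. In injured C57 tendon Tubb6 also ranked second, at 101 ± 37.7 CPM per kb, with a range overlapping that of Tubb4b (85.0 ± 9.54). In uninjured C57 tendon every isotype overlapped the next in order, largely through replicate 4. Tubb6 and Tubb5 shared no 100-base window with another gene, unlike Tuba1a, Tuba1b, Tuba1c, Tubb2a and Tubb4b. The order between genes therefore depends on how ambiguous reads were counted.

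Tubb6 took a larger share of the beta-tubulin level after injury in both strains. The share, computed per kilobase within each library, was 8.00% to 12.6% in uninjured C57 tendon and 25.5% to 34.0% after injury, and 10.6% to 16.7% in uninjured MRL tendon and 25.8% to 31.6% after injury. The injured and uninjured ranges did not overlap in either strain, the mean shares after injury were 30.1% ± 3.99 in C57 and 29.5% ± 2.73 in MRL (SD, n = 4), and the injured ranges of the strains overlapped. The Tubb5 share was also higher after injury with no overlap, at 18.2% to 20.5% against 8.35% to 16.3% in C57 and at 22.1% to 29.1% against 13.7% to 20.1% in MRL. The share of Tubb2a was lower after injury, at 21.0% to 27.7% against 31.7% to 46.8% in C57 and at 23.0% to 31.1% against 33.8% to 42.3% in MRL. That of Tubb4b was 17.3% to 20.4% against 24.0% to 36.5% in MRL, and 22.5% to 32.2% against 31.5% to 40.1% in C57, where the ranges overlapped with all libraries. Without BI-181 and replicate 4 the C57 ranges for Tubb4b were 22.5% to 28.1% and 39.2% to 40.1%, with no overlap. The summed beta-tubulin level went from 233 to 290 CPM per kb in uninjured MRL tendon up to 472 to 753 CPM per kb at 7 dpi. In C57 it went from 205 to 257 CPM per kb in 3 uninjured libraries, with 661 in replicate 4, to 257 to 417 CPM per kb. Shares sum to a fixed total, so a lower share of Tubb4b in MRL stood beside a higher level. Tubb2a, Tubb2b and Tubb4b shared windows with other genes, and Tubb6 and Tubb5 did not. The size of each beta share thus depends on how ambiguous reads were counted.

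**Figure D3:**
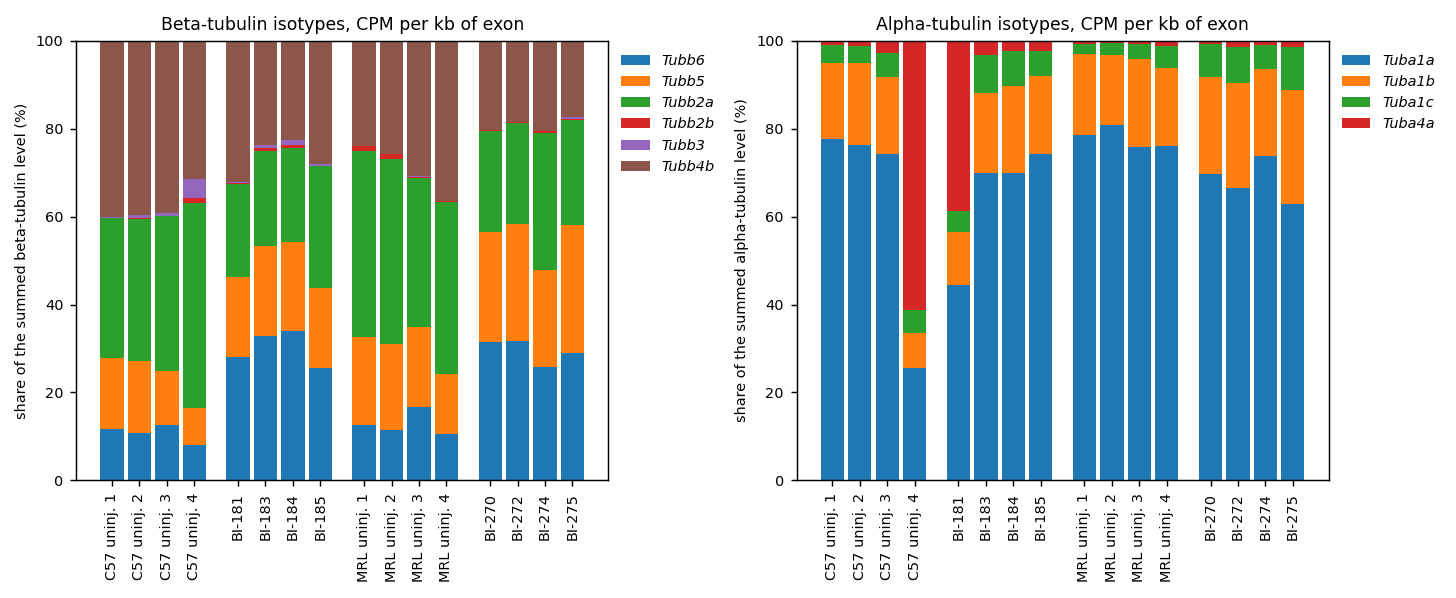
Share of the summed beta-tubulin level (left) and of the summed alpha-tubulin level (right) held by each isotype in each of the 16 libraries, in percent of CPM per kb of exon (uninj., uninjured replicate). The Tubb6 segment covers 8.00% to 16.7% in uninjured and 25.5% to 34.0% in injured libraries of both strains, and the Tuba4a segment covers 61.3% in C57 uninjured replicate 4 and 38.8% in BI-181.

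Among the alpha-tubulins Tuba1a held most of the level wherever the library did not stand apart. Its share was 74.3% to 77.7% in 3 uninjured C57 libraries and 25.5% in replicate 4, and 69.9% to 74.2% in 3 injured C57 libraries and 44.4% in BI-181. In MRL it was 75.9% to 80.9% before and 62.8% to 73.7% after injury, with no overlap. Tuba1c went from 2.12% to 5.15% up to 5.57% to 9.80% in MRL, also with no overlap. Given the shared windows of these genes, the Tuba1a, Tuba1b and Tuba1c shares depend on how ambiguous reads were counted.

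Compared between strains at 7 dpi, Tubb5 was the single isotype called, higher in MRL than in C57 with a log2 fold change of 1.19 ± 0.28 (edgeR adjusted p = 0.0469), where 3.43% of 14626 genes were called. All 4 injured MRL libraries (348 to 728 CPM) were above all 4 injured C57 libraries (155 to 282 CPM), as in 8.27% of genes tested. The call was near the threshold. It was lost when any of 7 of the 8 libraries was left out, the exception being BI-274, with an adjusted p of 0.0918 without BI-181 and a range of 0.00223 to 0.128 over 15 alternatives. By adjusted p alone Tubb2a was also higher in MRL, at 0.91 ± 0.20 (edgeR adjusted p = 0.0328), where 1.85% of genes were, and its 190 to 288 CPM lay above the 87.4 to 143 CPM of C57. It passed in 7 of 15 alternatives (range 0.00101 to 0.215). Tuba1b differed by 0.70 ± 0.22 (adjusted p = 0.107), also with no overlap between the strains. For Tubb6 the fitted difference was 0.71 ± 0.28, and the highest C57 library, BI-184 at 345 CPM, exceeded the lowest MRL library, BI-274 at 296 CPM.

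Before injury no isotype was called between the strains. edgeR called 0 of 14055 genes (0%), with 1106 at an unadjusted p under 0.05, and DESeq2 called 103 genes, none of them an isotype. Unadjusted p was under 0.05 for 3 isotypes, Tuba4a, Tubb3 and Tuba1c, each lower in MRL. Without replicate 4 of both strains it was under 0.05 for 6 of the 9 isotypes other than Tubb6, with Tuba4a, Tubb4b and Tuba1c lower in MRL and Tubb5, Tubb2a and Tubb2b higher. In that fit it was under 0.05 for 2574 of 14274 genes. The Tuba4a difference went from -5.36 to -1.01 and that of Tubb3 from -5.95 to -2.74 with these libraries left out. Tuba1c differed by -0.89 ± 0.38 (edgeR adjusted p = 0.622), and by -0.61 ± 0.21 (adjusted p = 0.149) without replicate 4 of both strains. Without those libraries 3.48% of 14274 genes were called, and Tubb2b was higher in MRL by 3.72 ± 0.79 (edgeR adjusted p = 0.0238, range over 15 alternatives 0.0238 to 0.999) and Tubb5 by 0.65 ± 0.13 (adjusted p = 0.0172, range over 16 alternatives 0.0172 to 0.969). Tubb6 means were 80.4 ± 33.9 CPM in C57 and 81.2 ± 15.9 CPM in MRL (SD, n = 4).

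Whether the injury response itself differed between strains was tested as an interaction over all 16 libraries. No isotype passed, and edgeR called 0 of 15947 genes (0%), with 1939 at an unadjusted p under 0.05 and 221 called by DESeq2, none of them an isotype. Unadjusted p was under 0.05 for 6 of the 9 isotypes other than Tubb6, namely Tubb4b, Tubb3, Tubb2a, Tuba1b, Tuba1c and Tubb5. Without the 3 libraries that stand apart it was under 0.05 for Tubb4b, Tuba1c and Tubb2b, and for 1599 of 16056 genes. The MRL response exceeded that of C57 by 0.94 ± 0.40 for Tubb5, 1.36 ± 0.50 for Tuba1c, 1.01 ± 0.36 for Tubb4b and 0.59 ± 0.27 for Tuba1b on the log2 scale, with edgeR adjusted p of 0.380, 0.344, 0.344 and 0.401. Without the 3 libraries these were 0.44 ± 0.35, 0.98 ± 0.40, 0.63 ± 0.21 and 0.44 ± 0.27. The difference of responses for Tubb2a was 1.32 ± 0.57 (adjusted p = 0.382) with all libraries and 0.29 ± 0.27 without the 3, and for Tubb3 it was 5.36 ± 2.06 (adjusted p = 0.351) and 1.84 ± 1.75. For Tubb2b it was -0.24 ± 1.64 with all libraries and -4.33 ± 1.10 (edgeR adjusted p = 0.262) without the 3, and it was above 0 in 7 of 21 alternatives. For Tubb6 the difference of responses was 0.73 ± 0.43 with all libraries and 0.15 ± 0.36 without the 3.

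Proliferation markers were also high in injured libraries. Their summed level over 10 genes (among them Mki67, Top2a and Cdk1) was 4.50 to 15.5 CPM in uninjured MRL tendon and 262 to 880 CPM after injury, and all 10 were called higher there. In C57 it was 9.91 to 17.1 CPM in 3 uninjured libraries, 273 CPM in replicate 4, and 69.1 to 419 CPM after injury, with 0 of 10 called by edgeR or DESeq2, 1 at an unadjusted p under 0.05 and a median log2 fold change of 1.71, and without replicate 4 and BI-181 edgeR called 8 of 10, with a median of 4.69. BI-275 had the highest sum and the highest Tubb6, Tubb5 and Tuba1c, and in injured C57 tendon BI-183 and BI-184 (409 and 419 CPM) exceeded BI-181 and BI-185 (156 and 69.1 CPM), as they did for Tubb6, Tubb5 and Tuba1c. C57 uninjured replicate 4, with a proliferation sum of 273 CPM beside 262 CPM in BI-274, had Tubb6 at 129 CPM and BI-274 at 296 CPM. Tubb5 was at 183 CPM in replicate 4 and 348 CPM in BI-274. Tuba1c went the other way, at 82.1 CPM in replicate 4 and 57.1 CPM in BI-274. The summed level of 8 macrophage markers was 3423 to 6193 CPM in injured MRL and 4252 to 7870 CPM in injured C57 tendon, against 700 to 1484 CPM in uninjured tendon. Macrophage sums too were higher in BI-183 and BI-184 (7604 and 7870 CPM) than in BI-181 and BI-185 (4252 and 6556 CPM). In bulk tissue more cells of a type and more RNA per cell cannot be told apart, and the part of either marker group in the tubulin levels was not tested.

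**Figure D4:**
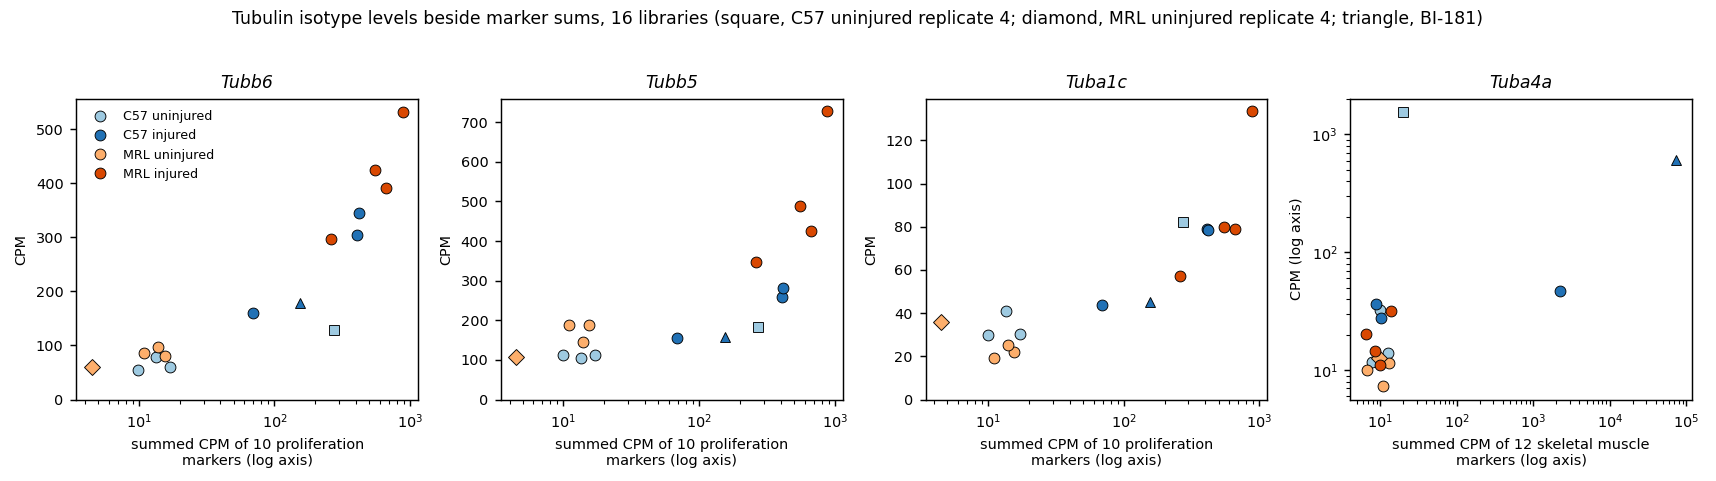
Levels of Tubb6, Tubb5 and Tuba1c (CPM) against the summed CPM of 10 proliferation markers on a log axis, and of Tuba4a (CPM, log axis) against that of 12 skeletal muscle markers on a log axis. Each point is 1 of the 16 libraries, coloured by group, with the libraries that stand apart as a square (C57 uninjured replicate 4), a diamond (MRL uninjured replicate 4) and a triangle (BI-181). The 4 injured MRL libraries lie at marker sums of 262 to 880 CPM and Tubb6 levels of 296 to 533 CPM, and the 2 high Tuba4a points are the square and the triangle.

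Across the 16 libraries the levels most like that of Tubb6, by Pearson's r of log2 CPM among 12005 genes, belonged to Sh3bgrl3 (0.96), Tpm3 (0.96), Il1rl1 (0.96), Kif22 (0.96) and Fam64a (0.95). Tpm3 encodes a tropomyosin of the actin cytoskeleton, Il1rl1 the receptor of interleukin-33, and Kif22 a chromosome-binding mitotic kinesin. For Tubb5 the nearest genes were Fkbp11 (0.96), Pfn1 (0.96) and Sec13 (0.96), and for Tuba1c they were Tpx2 (0.97), 1110008F13Rik (0.96) and Ube2c (0.96), of which Tpx2 is a spindle assembly factor and Ube2c a ubiquitin-conjugating enzyme of mitotic exit. For Tuba4a the nearest was Tuba8 (0.94), and both were highest in C57 uninjured replicate 4 and BI-181. Tubb2b and Tubb3, the isotypes with the lowest counts, had no gene above 0.78 and 0.86. These values describe 16 libraries that share tissue, time points and the contrast of injury, and no test was made of them.

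The remaining tubulin genes were mostly absent or low. Of 10 (Tuba3a, Tuba3b, Tuba8, Tubal3, Tubb1, Tubb4a, Tubg1, Tubg2, Tubd1 and Tube1), 5 were tested in MRL and 1 was called, gamma-tubulin Tubg1, the template for microtubule nucleation, which was higher after injury by 1.16 ± 0.26 (edgeR adjusted p = 0.0185). In that contrast 5.25% of 14274 genes were called higher. Tubb1, the platelet beta-tubulin, and Tuba3b had 0 counts in all 16 libraries. Tubb1 is 1 of 4 platelet markers, whose sum was 54.7 to 139 CPM in uninjured and 306 to 406 CPM in injured C57 tendon, and 39.2 to 93.5 and 114 to 273 CPM in MRL tendon, and the part of platelets in the tubulin levels was not tested. Of the 6 tested in C57 edgeR and DESeq2 called 0, with 0 at an unadjusted p under 0.05. Between the injured strains Tubb4a, a beta-tubulin of myelinating glia, was lower in MRL, with means of 0.579 CPM against 6.08 CPM in C57 (log2 difference -3.39, edgeR adjusted p = 0.0480, and 0.0822 without BI-181).

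Of the genes that fold tubulin 1 was called in MRL, a share of the list near the 5.25% of all genes called higher there, and 0 in C57. Of 20 (the CCT chaperonin subunits, the prefoldin subunits, the tubulin cofactors and Arl2), 19 had a positive log2 fold change in MRL, with a median of 0.56 beside -0.03 over all genes, 6 passed on adjusted p alone (2 without MRL uninjured replicate 4), where 7.73% of genes did as higher, and 1, the prefoldin subunit Pfdn1, passed both criteria (1.08 ± 0.23, edgeR adjusted p = 0.0164). In C57 the median was 0.00 beside -0.05, 10 of 20 were positive, edgeR and DESeq2 called 0, and 0 had an unadjusted p under 0.05. Without replicate 4 and BI-181 it was 0.17, with 15 of 20 positive and 0 called by edgeR, 2 at an unadjusted p under 0.05. Of 18 nucleation genes 1 was called in MRL, again near the 5.25% of all genes, and 2 without MRL uninjured replicate 4, where Haus3 came in. The first was Tpx2, whose mean went from 1.35 to 50.8 CPM (edgeR adjusted p = 0.000824), and the median was 0.06. The gamma-tubulin ring complex genes Tubgcp2 to Tubgcp6 had log2 fold changes between -0.50 and 0.07 there, none of them called. Of the 17 tubulin-modifying enzymes tested (ligases, acetylases and carboxypeptidases that write and erase the tail marks) edgeR called 0 in MRL, with 2 at an unadjusted p under 0.05 and 1 called by DESeq2 (the glutamylase Ttll5), and 0 in C57, with 1 at an unadjusted p under 0.05 and 0 called by DESeq2. Among the nucleation genes edgeR and DESeq2 called 0 in C57, with 0 at an unadjusted p under 0.05, and Tpx2 ran from 2.53 to 30.4 CPM before and from 7.38 to 43.1 CPM after injury. Without replicate 4 and BI-181 Tpx2 was called in C57, higher by 2.91 ± 0.62 (edgeR adjusted p = 0.0236), and of the modifying enzymes 0 were, with 2 at an unadjusted p under 0.05.

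Of 24 genes that bind microtubules or set their dynamics and were tested in MRL, 3 were called higher and 1 lower. Of all 14274 genes tested there 5.25% were called higher and 307 genes lower. Stmn1, which sequesters free dimers, went from a mean of 2.81 to 88.0 CPM (edgeR adjusted p = 0.00104), the depolymerising kinesin Kif2c from 0.126 to 33.0 CPM (adjusted p = 0.00119) and Fignl1, a relative of the severing enzyme fidgetin, from 0.972 to 23.4 CPM (adjusted p = 0.0136). Map2, a microtubule-associated protein, fell by 2.33 on the log2 scale, from 32.3 to 6.38 CPM (adjusted p = 0.00825). The median of the list was -0.20. In C57 edgeR called 0 of the 25 tested, with 5 at an unadjusted p under 0.05 and 1 called by DESeq2, Map2. Stmn1 there ran from 2.39 to 69.9 CPM before and from 22.4 to 56.3 CPM after injury. Without replicate 4 and BI-181 edgeR called 3 of the 25 in C57, Stmn1 higher by 3.99 ± 0.38 (adjusted p = 0.000927), Fignl1 higher by 3.31 ± 0.69 (adjusted p = 0.0226) and Map2 at -1.51 ± 0.36 (adjusted p = 0.0356). Of 14515 genes 658 (4.53%) were called higher in that fit and 209 lower. Map7, a microtubule-associated protein that recruits kinesin, was lower in injured MRL than in injured C57 tendon (0.817 against 6.22 CPM, edgeR adjusted p = 0.0293, and 0.0623 without BI-181). Ttc5, the factor that recognises nascent tubulin chains in the decay pathway described above, had a log2 fold change of -0.30 ± 0.21 in MRL (edgeR adjusted p = 0.381) and -0.27 in C57.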

How the data were processed

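RNA from 16 flexor tendons (4 C57 and 4 MRL uninjured, 4 of each strain at 7 dpi) was sequenced as single-end reads of 100 nt. The deposited file holds raw counts per gene symbol, not normalized. Per the labels' processing notes the authors used Trimmomatic 0.36, STAR 2.5.2b, featureCounts from Subread 1.5.0p3 and DESeq2 1.14.1 on build GRCm38.p5. The annotation, the strand setting and the handling of reads with several hits are not given in the sources used here. The labels describe a TruSeq library and the study's methods a SMARTer pre-amplification with NexteraXT, so the kit is uncertain.

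Groups came from the labels, and the study's methods give 4 animals per group. Counts were fitted with edgeR 4.0.16 (R 4.3.3): filterByExpr, TMM factors, robust quasi-likelihood fit and test, 2-sided, with Benjamini-Hochberg adjustment over all genes tested. Within each strain the fit used its 8 libraries, as in the study, and a gene was called when its adjusted p was under 0.05 and its log2 fold change lay beyond 1 in either direction (the interaction, over 16 libraries, at adjusted p alone). CPM values use TMM-adjusted library sizes, and CPM per kb divides by the summed exon length of GENCODE M21. Likeness between genes used log2 CPM with a prior count of 2 over genes with a mean of at least 50 counts.

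The alternatives were DESeq2 1.42.0, other size factors, other filters, leaving out libraries, one fit over all groups, the replicate number as a block, and counts not divided by length. The scripts were tested on simulated data. The 10 members, all gene lists, the markers and the libraries treated as standing apart were chosen with earlier results of these data known. All members are named, and from the lists those called with the 3 smallest adjusted p or at 0, with members of a list that another tool called named after their values were seen. Intervals from 0 counts (3 counts) cover counting error only. The tail sequences of the remaining members are not reported here.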

Additional observations from a re-analysis of the deposited data

Results flagged for a closer look

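Of 40 gene and group combinations of 4 libraries (10 isotypes in 4 groups), 6 had 1 library whose gap on the log2 CPM scale (prior count 2) to the nearest other, relative to the whole range, exceeded Dixon's critical value, and chance alone gives about 1 in 20. In C57 uninjured replicate 4 these were Tubb5 at 183.4 CPM beside 106 to 113 CPM in its group mates, Tubb2b at 15.25 CPM beside 0.269 to 0.518 CPM, and Tuba1a at 313.2 CPM beside 432 to 461 CPM. That library held 77084 CPM of epidermal markers and 273 CPM of proliferation markers, whose part in the 3 values was not tested. Tuba4a was at 606.6 CPM in BI-181 beside 28.0 to 47.3 CPM in the other injured C57 libraries, and BI-181 held 74717 CPM of skeletal muscle markers, whose part was not tested either. Tubb3 was at 7.182 CPM in BI-275 beside 1.04 to 1.19 CPM in the other injured MRL libraries. It was at 0.9549 CPM in MRL uninjured replicate 3 beside 0 in its 3 group mates. On the CPM scale itself 9 combinations passed the same value. Of these 6 were in C57 uninjured replicate 4, where Tubb2a, Tubb3, Tubb4b and Tuba4a came in beside Tubb5 and Tubb2b and Tuba1a dropped out.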

How the results depend on the processing

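The calls of Tubb5 and Tuba1c in MRL held in all 15 alternatives run. In C57 injury the 155 genes called became 909 with DESeq2, 269 with at least 10 counts in every library, 867 without the libraries that stand apart and 367 in one fit of 16 libraries, and the 0 isotypes called became 1, 1, 3 and 1. In MRL injury DESeq2 called 1808 genes in place of 1057. In uninjured MRL against C57 the count of 0 became 103 with DESeq2, 1 with no filter, 1 with at least 10 counts and 497 without the libraries that stand apart. In injured MRL against C57 the 502 became 1473 with DESeq2 and 227 in one fit of 16, and DESeq2 called 221 genes in the interaction in place of 0.

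Leaving out 1 library at a time gave 10 (without C57 uninjured replicate 3) to 750 genes (without replicate 4) and 0 to 1 isotypes in C57 injury, 689 (without MRL uninjured replicate 1) to 1260 genes and 2 to 3 of the 9 isotypes other than Tubb6 in MRL injury, 0 to 3 genes in the uninjured and 231 (without BI-185) to 481 genes in the injured comparison, and 0 to 0 in the interaction. The Tubb5 difference between injured strains ran from 1.00 to 1.38.

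Without the libraries that stand apart the C57 injury log2 fold change turned to 0.12 for Tubb2a, 3.60 for Tubb2b, 1.15 for Tubb3 and 0.95 for Tuba4a, and the uninjured MRL difference to 0.45 for Tubb6, 0.52 for Tubb2a and 3.72 for Tubb2b. The latter was also 0.029 for Tubb6 with upper-quartile factors and 0.025 with no filter. Over single libraries left out, signs turned for Tubb2b (-0.61 to 3.32), Tubb3 (-2.94 to 0.75), Tuba1a (-0.016 to 0.23) and Tuba4a (-3.50 to 3.24) in C57 injury, Tubb2b (-0.72 to 0.083) in MRL injury, Tubb6 (-0.17 to 0.33), Tubb2a (-0.63 to 0.47) and Tubb2b (-0.56 to 3.36) in the uninjured comparison, and Tubb2b (-0.69 to 0.07) and Tubb3 (-1.74 to 0.32) in the injured one, and Tubb2b (-3.73 to 0.194) and Tuba4a (-2.35 to 4.37) in the interaction.

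Both uninjured groups carry replicate numbers 1 to 4, but deviations of same-numbered libraries correlated at -0.26, 0.02, -0.10 and -0.23, so the numbers were not taken as pairs. With the replicate number as a block edgeR called 0 genes (812 at an unadjusted p under 0.05), and the differences were 0.063 for Tubb6 and 2.42 for Tubb2b. With counts not divided by length the mean Tubb6 share was 12.4% and 31.6% in C57 and 14.4% and 30.0% in MRL. In injured MRL tendon the mean Tubb5 share was then 35.8%, above that of Tubb6. Depth limits Tubb2b and Tubb3 most in uninjured libraries, where Tubb2b had under 10 counts in 4 of 8 and Tubb3 had 0 in 3 of 8.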
